A study of Mus musculus with 12 samples.

Results

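Liver transcripts of 8 enzymes of the pentose phosphate pathway and of cytosolic NADPH supply were compared between 6 livers of mice with a global knockout of Lcorl (KO) and 6 wild-type (WT) livers. The genes were chosen by symbol with earlier results of these data known, as were the gene lists used below. All 8 (G6pdx, H6pd, Pgls, Pgd, Rpia, Tkt, Taldo1 and Idh1) were among the 17714 genes of the deposited table. Lcorl encodes a ligand-dependent corepressor-like protein. All 12 mice were females killed at 3 weeks, when they were weaned, and each library carries its own animal number. Strain and litter were not given in the sources used here. Whole liver was the tissue and total RNA was sequenced, and values are normalized read counts, that is, reads divided by 1 factor per library.

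The pentose phosphate pathway branches from glucose 6-phosphate. Its oxidative arm makes NADPH, the reducing agent of fatty acid and sterol synthesis and of glutathione recycling, and its non-oxidative arm exchanges carbon between ribose 5-phosphate, the sugar of nucleotides, and intermediates of glycolysis. In liver the pathway is known to be induced by carbohydrate feeding, together with malic enzyme, another source of cytosolic NADPH.

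KO livers had lower transcripts of the second NADPH-making enzyme of the oxidative arm (Pgd), of both carbon-exchange enzymes (Tkt and Taldo1) and of cytosolic isocitrate dehydrogenase (Idh1). The entry enzyme G6pdx, the lactonase Pgls, the isomerase Rpia and the endoplasmic reticulum enzyme H6pd did not pass the threshold. Genes were tested with limma on log2(normalized count + 1), and p-values were adjusted by Benjamini-Hochberg over 13569 genes whose mean reached 10. At an adjusted p of 0.05, 4 of the 8 genes fell, 0 rose and 4 did not pass. Among all genes tested 4.43% passed, 2.68% with the lower value in KO and 1.75% with the higher. Of the 4 genes that fell, Taldo1 alone kept its call in all 22 alternatives described below. Pgd and Idh1 each lost theirs in 6 cases when a single liver was left out. Means are given ± SD with n = 6 in each genotype. The median log2 difference of KO minus WT was −0.52 over the 8 genes and 0.01 over all genes tested. All 8 passed the filter on low values, and no library held fewer than 150 reads of any of them.

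Lcorl itself held 3 reads over the 6 KO livers and 1594 over the 6 WT livers (limma adjusted p = 1.36e-08). Libraries held 27692285 to 31296485 reads in KO and 21769795 to 28655120 in WT. Of 6 hepatocyte markers, all present, 0 passed in limma, edgeR or DESeq2, and 0 had an unadjusted p under 0.05. A pair of libraries held transcripts of other tissues. KO 2 had 126 normalized counts of the pancreatic gene Reg1, against 0 in the other livers. WT 6 had 53.4 of Adipoq and 101 of Cfd, both fat tissue genes, and no other liver exceeded 0.975 and 2.07. The sum of 5 fat tissue markers did not single out WT 6. That sum was 725 in WT 6, 1369 in KO 4 and 1093 in KO 3. Fabp4, a marker in that list, ran from 398 to 1368 in KO livers and from 500 to 767 in WT livers. Results were repeated without KO 2 and WT 6 because of Reg1, Adipoq and Cfd. KO livers also differed among themselves in sterol synthesis: Sqle, the squalene epoxidase gene, had 154, 159 and 151 normalized counts in KO 1, KO 2 and KO 4 and 3282, 3691 and 6021 in KO 3, KO 5 and KO 6, against 3779 to 5167 in WT livers.

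Positions are those of GENCODE M21 on GRCm38. G6pdx lies on chromosome X (74409483 to 74429194, minus strand), Rpia on chromosome 6 (70765720 to 70792232, minus) and Idh1 on chromosome 1 (65158616 to 65186500, minus). Pgd (149149991 to 149166771) and H6pd (149979475 to 150009023) lie on the minus strand of chromosome 4. Pgls lies on chromosome 8 (71592176 to 71601092, plus), Tkt on chromosome 14 (30548359 to 30574720, plus) and Taldo1 on chromosome 7 (141392199 to 141402968, plus). G6pdx shares 418 exon bases with Ikbkg on the opposite strand, and Pgls shares 776 with Fam129c on its own strand. How strand was treated in counting was not stated, so the count of G6pdx is uncertain to that extent. Pgls and Fam129c lie on the same strand, so the count of Pgls is uncertain whatever the strand setting. Neither neighbour passed the threshold (adjusted p = 0.855 for Ikbkg and 0.851 for Fam129c).

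Promoter windows of the 4 genes that fell, and of G6pdx, which did not pass, are shown because the 4 moved in the same direction. RefSeq windows on GRCm38.p6, from 250 bases before to 50 bases after the annotated start, were chr4:149166656-149166955 (minus) for Pgd, chr14:30548881-30549180 (plus) for Tkt, chr7:141391910-141392209 (plus) for Taldo1, chr1:65186430-65186729 (minus) for Idh1 and chrX:74428831-74429130 (minus) for G6pdx. Each is written 5′ to 3′ on the strand of the gene. Capitals mark matches on either strand to the GC box GGGCGG, the CCAAT box CCAAT or the antioxidant response element core TGACNNNGC.
Pgd: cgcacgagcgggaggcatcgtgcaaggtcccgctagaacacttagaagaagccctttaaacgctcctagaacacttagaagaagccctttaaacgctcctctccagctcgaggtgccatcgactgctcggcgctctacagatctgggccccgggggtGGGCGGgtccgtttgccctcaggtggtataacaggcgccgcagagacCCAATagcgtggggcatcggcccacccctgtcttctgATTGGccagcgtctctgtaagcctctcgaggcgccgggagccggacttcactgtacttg
Tkt: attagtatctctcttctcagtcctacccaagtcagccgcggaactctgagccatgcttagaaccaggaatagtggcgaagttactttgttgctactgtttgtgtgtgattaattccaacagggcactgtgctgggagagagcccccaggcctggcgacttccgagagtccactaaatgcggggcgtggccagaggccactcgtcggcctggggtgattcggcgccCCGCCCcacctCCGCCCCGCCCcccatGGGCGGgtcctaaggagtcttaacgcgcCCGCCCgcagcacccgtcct
Taldo1: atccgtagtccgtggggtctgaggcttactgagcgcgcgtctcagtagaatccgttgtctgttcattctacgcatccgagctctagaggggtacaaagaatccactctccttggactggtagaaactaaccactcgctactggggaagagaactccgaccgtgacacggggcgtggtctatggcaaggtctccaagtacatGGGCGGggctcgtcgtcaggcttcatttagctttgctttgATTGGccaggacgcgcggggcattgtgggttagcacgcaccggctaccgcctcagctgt
Idh1: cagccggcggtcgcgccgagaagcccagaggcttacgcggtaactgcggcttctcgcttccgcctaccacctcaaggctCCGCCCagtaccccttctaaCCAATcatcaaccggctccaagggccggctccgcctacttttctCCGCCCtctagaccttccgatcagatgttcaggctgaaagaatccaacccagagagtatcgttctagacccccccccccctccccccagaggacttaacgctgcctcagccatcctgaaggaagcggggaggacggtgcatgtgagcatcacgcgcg
G6pdx: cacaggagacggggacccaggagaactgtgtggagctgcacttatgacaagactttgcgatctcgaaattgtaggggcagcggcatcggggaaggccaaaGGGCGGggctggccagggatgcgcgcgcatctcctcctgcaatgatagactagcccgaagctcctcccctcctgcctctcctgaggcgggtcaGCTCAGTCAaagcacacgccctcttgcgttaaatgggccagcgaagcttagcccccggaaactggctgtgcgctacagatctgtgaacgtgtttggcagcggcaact

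The GC box occurred in 7 of the 8 genes, all but H6pd. By window it occurred in 8 of the 10 windows of the 8 genes, against 35.7% of 32851 RefSeq windows of this length. The H6pd window (chr4:150003187-150003486, minus) lies inside the GENCODE gene. That gene starts at 150009023 on the minus strand, and a promoter there was not searched. The Tkt window also lies inside its gene, which starts at 30548359, as does the G6pdx window, whose gene starts at 74429194 on the minus strand. The windows at second annotated starts of Pgd and Idh1 lie inside their genes too. Tkt held 5 GC box matches, and a pair of them overlap. The CCAAT box occurred in Pgd, Taldo1, Idh1 and H6pd (4 of the 10 windows), and in 37.4% of all windows. The antioxidant core occurred in G6pdx and at a second annotated start of Pgd (2 of the 10 windows), and in 12.4% of all windows. The E-box CACGTG, the sterol element TCACNCCAC and the TATA box TATAAA, searched on both strands, were in 0 of the 10 windows of the 8 genes and in 7.15%, 1.24% and 13.6% of all windows. A missing match says only that these letters are not in these windows.

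Levels of different genes were compared per kilobase of the principal transcript. Idh1 was the most abundant of the 8, at 4864 ± 772 in KO and 7054 ± 1113 in WT (normalized counts per kilobase, SD, n = 6 each). Taldo1 measured 1863 ± 150.3 in KO and 2649 ± 211 in WT per kilobase, and H6pd 2209.9 ± 409 in KO and 1922 ± 276 in WT. With this length, Taldo1 stood above H6pd in 1 KO liver and in 5 WT livers.

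Tkt measured 784 ± 258 in KO and 1439 ± 169 in WT per kilobase, Pgd 501 ± 88.4 in KO and 983 ± 297 in WT and Pgls 640.1 ± 50.8 in KO and 604 ± 40.4 in WT. By the same length, Pgd stood above Pgls in 1 KO liver and 5 WT livers. The lowest levels per kilobase were those of Rpia (mean 89.6 ± 12.7 in KO and 142 ± 40.5 in WT) and of the entry enzyme G6pdx (mean 93.2 ± 14.7 in KO and 104 ± 23.4 in WT), whose values overlapped in both genotypes. With the length of all annotated exons instead, the WT means per kilobase were 1678 for H6pd and 1499 for Taldo1, 630.5 for Tkt, 338 for Pgd and 143 for Pgls, and 89.7 for G6pdx and 48.4 for Rpia. H6pd then preceded Taldo1, and G6pdx preceded Rpia, so these orders depend on the length used. The livers with Taldo1 above H6pd, or Pgd above Pgls, were not counted with that length.

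**Figure D1:**
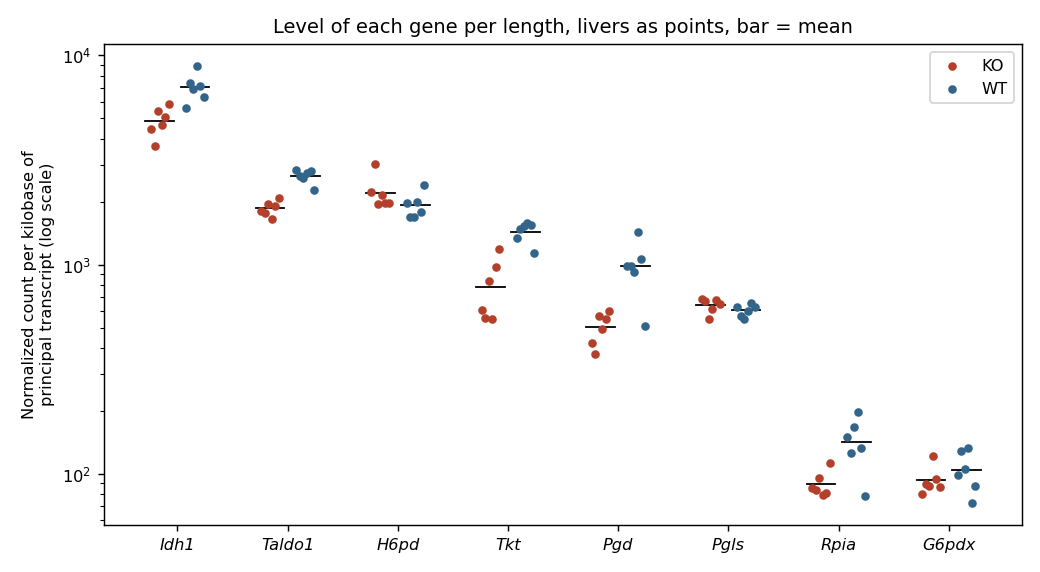
Normalized count per kilobase of principal transcript (log scale) for the 8 genes in order of the WT mean, with KO livers left of WT livers. Idh1 is at the top (mean 4864 in KO and 7054 in WT), and G6pdx is at the bottom (mean 93.2 in KO and 104 in WT).

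In the oxidative arm, the first 2 enzymes did not pass the threshold and the one after them fell. G6pdx encodes glucose 6-phosphate dehydrogenase, which makes the first NADPH of the pathway. Its lowest, median and highest normalized counts were 211, 235 and 323 in KO livers and 192, 271 and 352 in WT livers, so all KO values lay inside the WT range. The log2 difference was −0.14 (SE 0.149, 95% interval −0.46 to 0.18, limma adjusted p = 0.615). On the linear scale this interval runs from 72.5% to 113% of the WT level. Pgls encodes the lactonase that acts next, and had 489.8, 587 and 611 in KO livers and 491, 546 and 586 in WT livers as its lowest, median and highest. Its log2 difference was 0.08 (95% interval −0.07 to 0.23, adjusted p = 0.530), and it varied little between livers, with a coefficient of variation of 7.94% in KO and 6.69% in WT.

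Pgd encodes 6-phosphogluconate dehydrogenase, which makes the second NADPH and releases ribulose 5-phosphate. From lowest over median to highest, normalized counts were 833, 1151 and 1332 in KO livers and 1131, 2177 and 3188 in WT livers. Of the WT livers, 5 lay above the whole KO range, and WT 6 lay inside it. The means were 1111 ± 196 in KO and 2180.0 ± 658 in WT, a 1.90-fold lower level in KO (limma log2 difference −0.93, SE 0.201, adjusted p = 0.0244). The call ended when KO 1, KO 4, WT 1, WT 2, WT 3 or WT 5 was left out (adjusted p from 0.0520 to 0.0582), and without WT 6 the log2 difference was −1.11 (adjusted p = 0.00167).

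The log2 ratio of Pgd over G6pdx within a liver was 2.16 ± 0.320 in KO and 2.94 ± 0.453 in WT (SD, n = 6 each). The difference of −0.79 was tested by an exact two-sided permutation over all 924 splits of the livers (p = 0.00866, adjusted p = 0.0173 over 4 ratios), and 4 KO livers were beneath the whole WT range. A ratio between genes of the same library does not depend on how libraries are scaled. Pgd was thus lower relative to G6pdx in the same livers. Unlike the single genes, the ratios were not tested with runs of animal numbers as a block.

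H6pd encodes hexose 6-phosphate dehydrogenase, which carries out the first steps of the oxidative arm inside the endoplasmic reticulum and supplies NADPH there to Hsd11b1, the enzyme that regenerates active glucocorticoid. Its lowest, median and highest normalized counts were 8921, 9375 and 13756 in KO livers and 7691, 8596 and 11029 in WT livers, and KO 2 alone was above the WT range. The log2 difference was 0.19 (SE 0.119, 95% interval −0.06 to 0.45, limma adjusted p = 0.350). The log2 ratio of H6pd over G6pdx was 5.34 ± 0.331 in KO and 5.005 ± 0.424 in WT, a difference that the exact permutation test did not detect (p = 0.154, adjusted p = 0.154).

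Genes of glucose 6-phosphate handling in the endoplasmic reticulum did not pass either. Of the 6 in this list, 0 passed in limma, edgeR or DESeq2, and 2 had an unadjusted limma p under 0.05, as did 23.4% of all genes tested. Hsd11b1 averaged 19825 ± 3758 in KO and 16314 ± 2066 in WT (adjusted p = 0.212). Slc37a4, the carrier of glucose 6-phosphate into the lumen, averaged 7325 ± 1057 in KO and 8841 ± 571 in WT (adjusted p = 0.0961). G6pc, the glucose 6-phosphatase gene, varied widely, with 8861 ± 9054 in KO and 13040.0 ± 5295 in WT (adjusted p = 0.374).

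**Figure D2:**
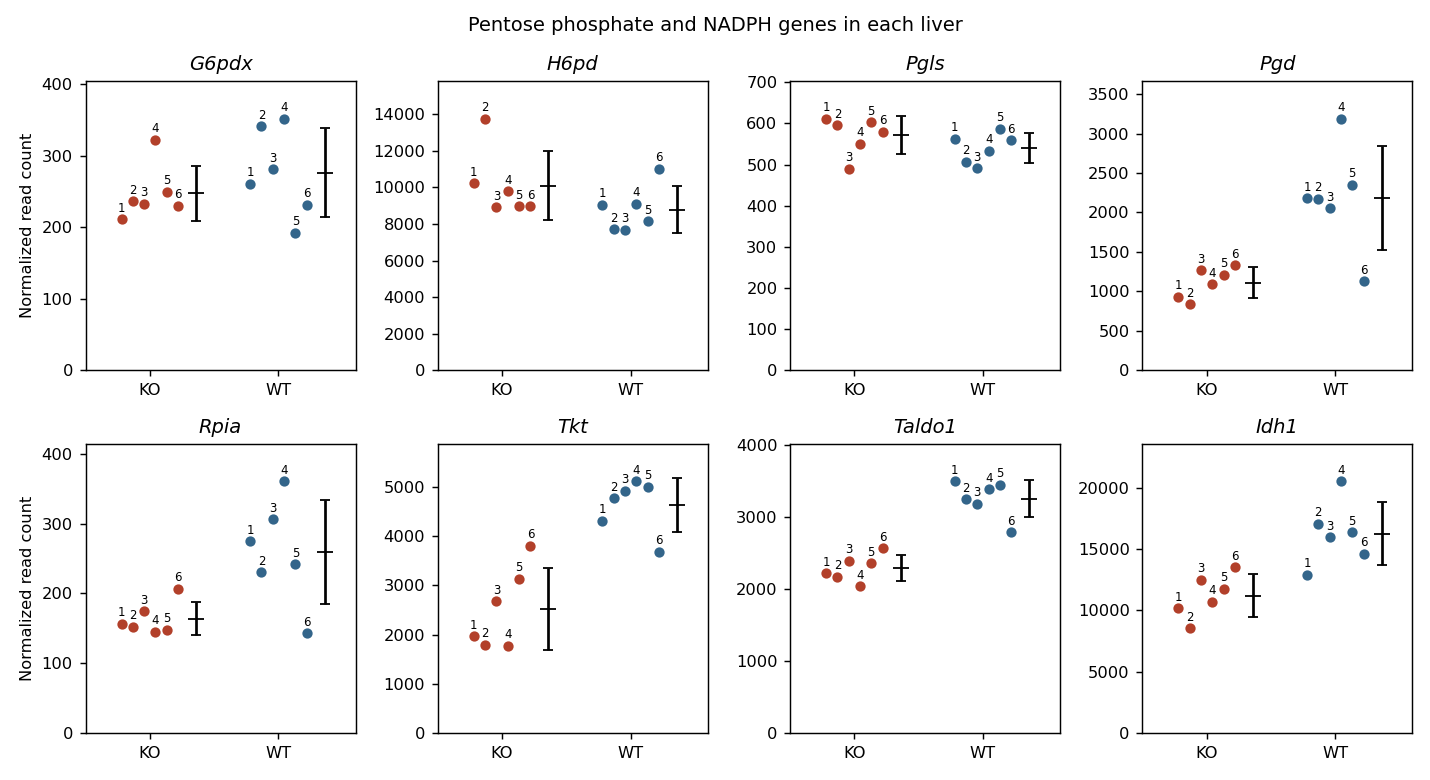
Normalized read counts of the 8 genes in each liver, KO left of WT, with points labelled by replicate number and the mean ± SD beside them. Taldo1 has no overlap between the genotypes (highest KO value 2563, lowest WT value 2784), and WT 6 is the lowest WT liver for Pgd, Rpia, Tkt and Taldo1.

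In the non-oxidative arm both carbon-exchange enzymes fell. Tkt encodes transketolase, which moves 2-carbon units between sugar phosphates. Its lowest, median and highest normalized counts were 1770.4, 2324 and 3809 in KO livers and 3681, 4851 and 5115 in WT livers. KO 6 reached into the WT range, and the other 5 KO livers were beneath it. The means were 2526 ± 831 in KO and 4637 ± 546 in WT, 1.90-fold lower in KO (limma log2 difference −0.93, SE 0.180, adjusted p = 0.0139). Leaving out any 1 library kept the call, with adjusted p up to 0.0402.

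Taldo1 encodes transaldolase, which moves 3-carbon units. From lowest over median to highest, normalized counts were 2040.0, 2285 and 2563 in KO livers and 2784, 3314 and 3493 in WT livers. The genotypes did not overlap, which held for KO beneath WT in 1.66% of all genes tested. The means were 2289.6 ± 185 in KO and 3255 ± 259 in WT, 1.42-fold lower in KO (limma log2 difference −0.51, SE 0.0703, adjusted p = 0.00234). Taldo1 was the 1 gene of the 8 without overlap, and the 1 of the 4 that kept its call in all 22 alternatives tried (adjusted p up to 0.0316).

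Tkt varied more among KO livers than Taldo1 did. The coefficient of variation of Tkt was 32.9% in KO and 11.8% in WT, and that of Taldo1 8.07% in KO and 7.96% in WT. The log2 ratio of Tkt over Taldo1 was 0.08 ± 0.355 in KO and 0.51 ± 0.125 in WT (SD, n = 6 each; difference −0.42, exact permutation p = 0.0325, adjusted p = 0.0433). It was beneath the WT range in KO 1 (−0.17), KO 2 (−0.27), KO 3 (0.17) and KO 4 (−0.20), and inside it for KO 5 (0.41) and KO 6 (0.57). This call ended when KO 1, KO 2, KO 3, KO 4, WT 2, WT 3, WT 4, WT 5 or WT 6 was left out (adjusted p up to 0.0779).

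Rpia encodes ribose 5-phosphate isomerase, which makes ribose 5-phosphate for nucleotides. From lowest over median to highest, normalized counts were 145, 154 and 206 in KO livers and 143, 259 and 361 in WT livers. WT 6 was the lowest of all 12 livers, and the other 5 WT livers were above the whole KO range. The log2 difference was −0.62 (SE 0.185, 95% interval −1.01 to −0.22) and did not pass in limma (adjusted p = 0.0738). Without WT 6 it was −0.78 (adjusted p = 0.00610). In the authors' deposited table Rpia passed (adjusted p = 0.0121), as did 4.76% of the genes with an adjusted p there with the lower value in KO.

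Rpe, which encodes the epimerase that converts the same substrate to xylulose 5-phosphate, fell without overlap. It averaged 680.2 ± 37.1 in KO and 942 ± 67.8 in WT (limma log2 difference −0.47, SE 0.0625, adjusted p = 0.00193), and the call was kept in all 22 alternatives. Rpe shares 558 exon bases with Kansl1l on the opposite strand, which averaged 446 ± 103 in KO and 329 ± 54.5 in WT (adjusted p = 0.118). Of the 11 tested genes in the list of other pentose and ribose phosphate genes, Rpe alone fell, against 2.68% of all genes tested. In that list 0 rose and 10 did not pass, with a median log2 difference of −0.10. Prps2, which encodes a phosphoribosyl pyrophosphate synthetase, averaged 302 ± 66.8 in KO and 411 ± 73.8 in WT (adjusted p = 0.108), and the ribokinase gene Rbks 315 ± 41.9 in KO and 272 ± 37.0 in WT (adjusted p = 0.269).

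Idh1 encodes cytosolic isocitrate dehydrogenase, which makes NADPH outside the pentose phosphate pathway. Its lowest, median and highest normalized counts were 8523, 11229.5 and 13518 in KO livers and 12901, 16174 and 20517 in WT livers. KO 6 was above WT 1, and the other 5 KO livers were beneath the WT range. The means were 11197 ± 1777 in KO and 16239 ± 2563 in WT, 1.45-fold lower in KO (limma log2 difference −0.54, SE 0.124, adjusted p = 0.0323). The call ended when KO 1, KO 4, WT 2, WT 3, WT 4 or WT 5 was left out (adjusted p from 0.0617 to 0.0741).

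Me1, which encodes cytosolic malic enzyme, fell more than Idh1. It averaged 733 ± 295 in KO and 3319 ± 1157 in WT (limma log2 difference −2.20, SE 0.286, adjusted p = 0.00181). The log2 ratio of Idh1 over Me1 was 4.02 ± 0.530 in KO and 2.35 ± 0.435 in WT, and all 6 KO livers were above the WT range (difference 1.66, exact permutation p = 0.00216, the smallest that 924 splits can give, adjusted p = 0.00866). This ratio compares the sizes of both falls. It uses the same values as the calls of Idh1 and Me1 and adds no support to them. Of the 8 tested genes in the list of other NADPH supply genes, Me1 alone fell, against 2.68% of all genes tested. In that list 0 rose and 7 did not pass (median log2 difference −0.02). The mitochondrial Idh2 averaged 5122 ± 1255 in KO and 3997 ± 324 in WT (adjusted p = 0.179). The NAD kinase genes, whose products make NADP, had log2 differences of −0.21 for Nadk and 0.27 for Nadk2 (adjusted p = 0.157 and 0.139).

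**Figure D3:**
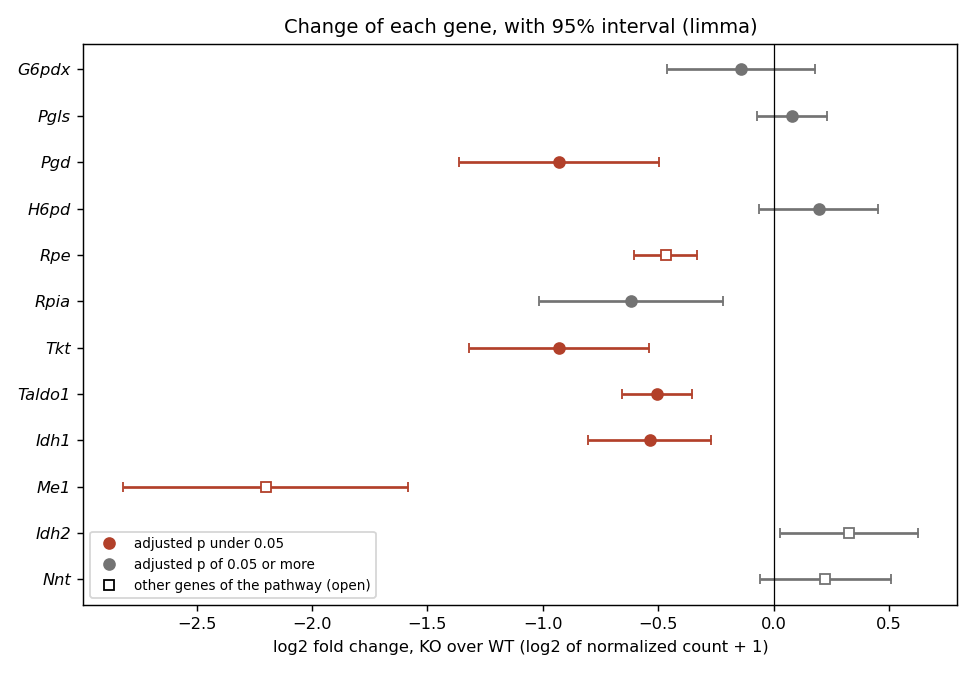
Log2 difference of KO minus WT with its 95% interval from limma for the 8 genes and for other genes of the pathway, red where the adjusted p was under 0.05. Pgd is at −0.93, Tkt at −0.93, Taldo1 at −0.51, Idh1 at −0.54 and Me1 at −2.20, and the intervals of G6pdx, Pgls and H6pd include 0.

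The 4 genes that fell ordered the KO livers alike. KO 1, KO 2 and KO 4 were the 3 lowest KO livers for Pgd, Tkt, Taldo1 and Idh1, and KO 6 was the highest for all 4. Rpia, with KO 4 and KO 5 lowest, did not share these 3 livers, and G6pdx was highest in KO 4. The share of all genes tested with KO 1, KO 2 and KO 4 lowest was not computed. For Tkt, the log2 deviation from the WT mean was −1.23 for KO 1, −1.36 for KO 2, −1.38 for KO 4 and −0.27 for KO 6. For H6pd, KO 1, KO 2 and KO 4 were the highest of the KO group, with deviations of 0.23, 0.66 and 0.17. They are also the livers with the least Sqle, and they had the least Fasn, the fatty acid synthase gene, at 2525, 2575 and 3098 normalized counts, whereas KO 3, KO 5 and KO 6 had 10822, 6442 and 12835 and WT livers 10195 (WT 6) to 62465. Summed proliferation markers were likewise lowest in KO 1, KO 2 and KO 4 (487, 347 and 921).

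The other KO livers were closer to WT. In KO 3, KO 5 and KO 6 the log2 deviation from the WT mean was −0.78, −0.56 and −0.27 for Tkt, and −0.72, −0.78 and −0.65 for Pgd. For Taldo1 it was −0.44, −0.46 and −0.34, and for Idh1 −0.36, −0.45 and −0.25. All 6 KO livers were thus below the WT mean for each of the 4 genes. These genes were picked as lower in the same livers, so this count adds no support to their calls. For Pgd, WT 6 (−0.88) lay below KO 3, KO 5 and KO 6. These orders were seen in the data, and whether the members move with the sterol and fatty acid synthesis genes was not tested.

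Among WT livers, WT 6 was the lowest for Pgd (−0.88), Rpia (−0.80), Tkt (−0.32) and Taldo1 (−0.22) and the highest for H6pd (0.34). WT 4 was the highest for G6pdx (0.38), Pgd (0.61), Rpia (0.53), Tkt (0.15) and Idh1 (0.35). Without WT 6 and KO 2 together, 5 of the 8 genes fell, with Rpia added (log2 difference −0.76, adjusted p = 0.0120), against 3.78% of all genes tested that passed with the lower value in KO.

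**Figure D4:**
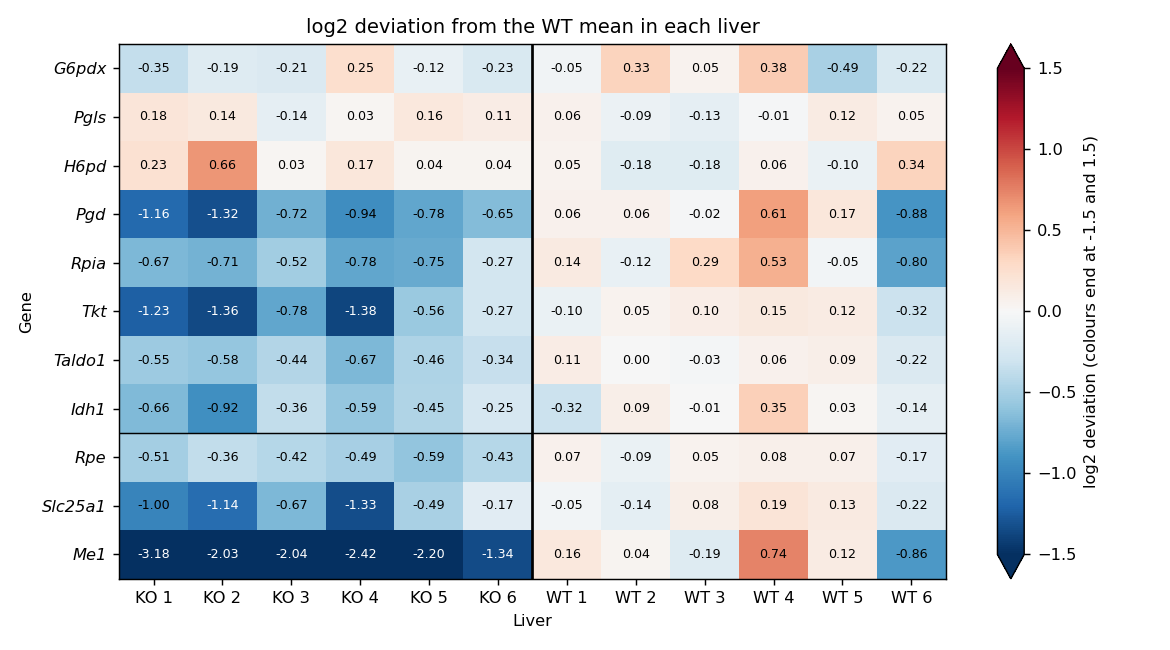
Log2 deviation of each liver from the WT mean for the 8 genes and for Rpe, Slc25a1 and Me1, KO livers left of WT livers. KO 1, KO 2 and KO 4 are lowest for Tkt (−1.23, −1.36 and −1.38), and WT 6 is low among WT livers for Pgd (−0.88) and Rpia (−0.80).

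Animal numbers fell into 4 runs, a gap of 10 or more starting a run, and the labels do not say what a run shares. With the run as a block in limma, Taldo1 alone of the 8 genes kept its call (log2 difference −0.50, adjusted p = 0.0316), against 0.715% of all genes that passed with the lower value in KO. Pgd, Tkt and Idh1 did not pass (adjusted p = 0.109, 0.0848 and 0.115). In the 3 runs with both genotypes, the log2 difference of KO minus WT was −0.66, −0.62 and −0.33 for Taldo1, −1.13, −1.32 and −0.31 for Tkt, −1.22, −1.60 and −0.36 for Pgd and −0.34, −0.97 and −0.30 for Idh1. Each of the 4 genes was lower in KO in all 3 runs, and the smallest difference was in the run of KO 5, KO 6, WT 5 and WT 6. In the same order, these runs held 1 KO and 1 WT liver, 3 KO and 1 WT, and 2 KO and 2 WT. The 4 genes were picked as lower in these same livers, so the shared direction is not a separate test.

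Genes with the most similar pattern were found by the root mean square difference of log2 deviations from the WT mean over the 12 livers, among 11076 genes whose mean reached 50. Tkt was most like Echdc1 (0.110), which encodes a metabolite repair decarboxylase, the citrate carrier gene Slc25a1 (0.125) and Mir3076 (0.125), which shares 1 exon base with Tkt and is not independent of it. Taldo1 was most like Mob3b (0.0850), Rpe (0.101) and the thioredoxin gene Txn1 (0.102). Pgd was most like Pole (0.185), the catalytic subunit gene of DNA polymerase epsilon, the acyl-CoA synthetase gene Acsl5 (0.187) and the chromatin assembly factor gene Chaf1b (0.205). Idh1 was most like Pag1 (0.0925), Lactb2 (0.117) and Pm20d1 (0.136). G6pdx was most like Amn1 (0.143), Plekha2 (0.151) and Il2rg (0.163).

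In the list of citrate and malate shuttle genes, which supply the substrates of Idh1 and Me1, 3 of 8 fell and 0 rose. The other 5 did not pass, and the median log2 difference was −0.12. Of all genes tested 2.68% fell. An unadjusted limma p under 0.05 was found for 4 of the 8, against 23.4% of all genes tested. Slc25a1 averaged 2810.5 ± 869 in KO and 4730.4 ± 526 in WT (limma adjusted p = 0.0226), the ATP citrate lyase gene Acly 4424 ± 1979 in KO and 14838 ± 6289 in WT (adjusted p = 0.0234) and the citrate synthase gene Cs 2935 ± 420.1 in KO and 4005 ± 513 in WT (adjusted p = 0.0279). Leaving out single livers ended these calls in 3, 6 and 7 of 12 cases, and the block for animal runs ended all 3 (adjusted p = 0.0954, 0.121 and 0.108). Aco1, which encodes the cytosolic aconitase that makes isocitrate, averaged 5287 ± 754 in KO and 6312 ± 568 in WT (adjusted p = 0.131).

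Among NADPH users of lipid synthesis 3 of 12 fell, against 2.68% of all genes tested, 0 rose and 9 did not pass. Their median log2 difference was −0.84, and 8 had an unadjusted limma p under 0.05, against 23.4% of all genes tested. The fatty acid synthase gene Fasn averaged 6383 ± 4506 in KO and 30709 ± 17233 in WT (adjusted p = 0.0173). Hsd17b12 and Tecr, which encode the reductases of fatty acid elongation, had log2 differences of −0.73 and −0.53 (adjusted p = 0.0226 and 0.0346), and leaving out single livers ended these calls in 6 and 8 of 12 cases. With the block for animal runs all 3 calls ended (adjusted p = 0.0940 for Fasn, 0.121 for Hsd17b12 and 0.126 for Tecr). The sterol synthesis gene Tm7sf2 averaged 1794 ± 1269 in KO and 3837 ± 581 in WT (adjusted p = 0.0634).

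Among NADPH users of redox defence 0 of 16 passed in limma, edgeR or DESeq2, and 4 had an unadjusted limma p under 0.05, a share near the 23.4% of all genes tested (median log2 difference −0.04).

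At the branch point of glucose 6-phosphate 1 of 14 genes fell, against 2.68% of all genes tested. In that list 0 rose and 13 did not pass (median log2 difference −0.02). Pfkfb3, whose product makes the glycolytic activator fructose 2,6-bisphosphate, averaged 426 ± 148 in KO and 892 ± 269 in WT (adjusted p = 0.0400), and this call ended in 9 of 12 cases when single livers were left out and with the block for animal runs (adjusted p = 0.185). Pfkl, the liver phosphofructokinase gene, averaged 1808 ± 415 in KO and 1301 ± 62.8 in WT (adjusted p = 0.0727).

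Of 11 regulators 1 fell, against 2.68% of all genes tested, 0 rose and 10 did not pass (median log2 difference −0.25). Mlxipl, which encodes the carbohydrate response factor ChREBP, averaged 3752 ± 528 in KO and 6549 ± 1254 in WT without overlap (log2 difference −0.79, SE 0.131, adjusted p = 0.00617), a call kept in all 22 alternatives. Srebf1, the gene of the lipogenic factor SREBP1, averaged 6955 ± 2345 in KO and 10485 ± 3219 in WT (adjusted p = 0.174). Nfe2l2, the gene of the antioxidant factor NRF2, averaged 2045 ± 289.8 in KO and 1984 ± 158 in WT (adjusted p = 0.863).

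**Figure D5:**
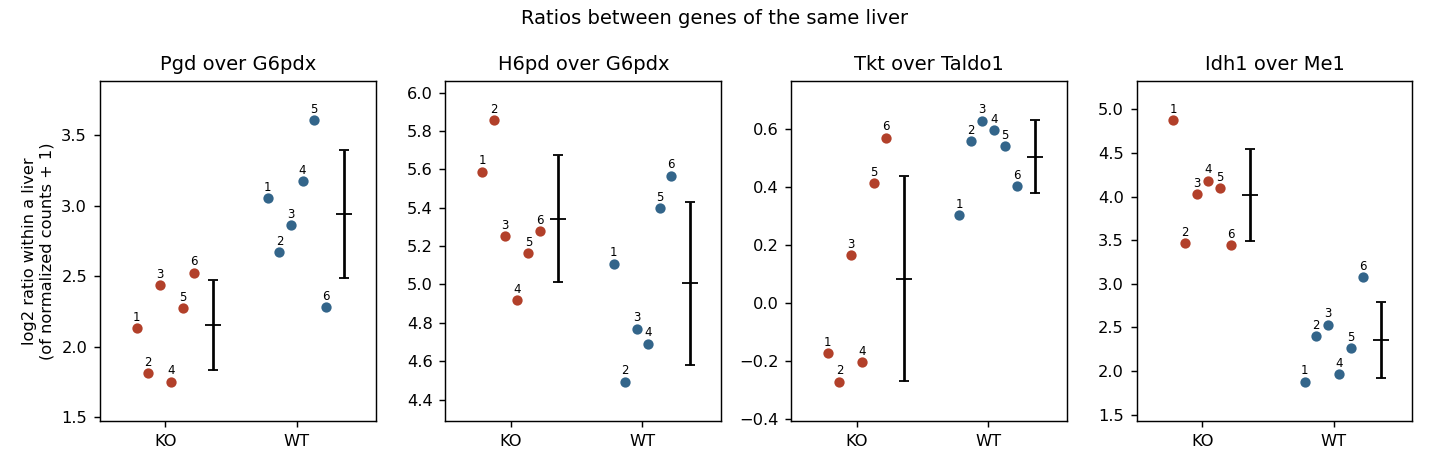
Log2 ratios between genes of the same liver, KO left of WT, with points labelled by replicate number and the mean ± SD beside them. Idh1 over Me1 separates the genotypes without overlap, and Pgd over G6pdx averages 2.16 in KO and 2.94 in WT.

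In whole liver, fewer cells of a type and less RNA per cell cannot be told apart. Of 6 proliferation markers 2 fell in limma (Ccna2 and Birc5), 0 in edgeR and 4 in DESeq2, and all 6 had the lower mean in KO. All 6 had an unadjusted limma p under 0.05, against 23.4% of all genes tested, and their median log2 difference was −1.39. Leaving out single livers ended the calls of Ccna2 and Birc5 in 9 and 8 of 12 cases, and so did the block for animal runs (adjusted p = 0.170 and 0.183). The summed normalized counts of the 6 markers were 347 to 1873 in KO (median 1085) and 1514 to 4636 in WT (median 2400.2). Of 8 erythroid markers 0 passed in the 3 tools and 3 had an unadjusted limma p under 0.05, with sums of 2920.3 to 9542 in KO (median 4108) and 3471 to 16443 in WT (median 8218). Of 8 Kupffer cell markers 0 passed and 1 had an unadjusted p under 0.05, with sums of 22169.9 to 30261 in KO (median 23369) and 17044 to 30367 in WT (median 23671). Of 7 neutrophil markers 0 passed and 0 had an unadjusted p under 0.05, with sums of 582 to 6288 in KO (median 1009) and 617 to 1602 in WT (median 1386), KO 4 being the highest. Their part in the results above was not tested.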

How the data were processed

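RNA of 12 livers was grouped by the genotype in the labels, with replicates numbered in accession order. The RNA was prepared with a TruSeq total RNA kit, per the labels' protocols. Per the submitters' processing notes, the tools were FastQC, STAR, featureCounts and DESeq2 and the build was mm10; versions, annotation and strand setting were not stated. The authors deposited a signal, normalized counts, which are reads divided by 1 factor per library. With a tolerance of 0.001 reads, 100% of values were whole multiples of the step of their library, so reads could be recovered. A second deposited file by the authors holds a log2 fold change, a standard error (a score), a p-value and its adjusted value for each gene; adjusted values alone are quoted.

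The main test was limma 3.58.1 (R 4.3.3) with a mean-variance trend and genotype as the only term, on log2(normalized count + 1), for genes with a mean of 10 or more, two-sided, at an adjusted p of 0.05. Adding 1 understates changes of low genes. Alternatives were pseudocounts of 0.5 and 10, no filter, a mean of 50, equal library totals, equal upper quartiles, edgeR 4.0.16 and DESeq2 1.42.0 with recovered reads, a block for runs of animal numbers, each library left out, and WT 6 with KO 2 left out. The procedure was tested on simulated counts, drawn independently with the spread of the WT livers and without animal runs. That simulation cannot show how firm calls are where KO livers vary more or where runs differ. The members and lists were chosen with earlier results of these data known. Named genes were the 8 members, fixed partners and regulators, genes among the 4 smallest p of each list, and the 3 genes most like each member that fell and G6pdx. Tktl2 and G6pd2 were not found among the genes of the deposited table and so were not analysed.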

Additional observations from a re-analysis of the deposited data

Results flagged for a closer look

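A pair of values stood apart from the other livers of their genotype by the size of the gap to the nearest one, among 24 groups checked, where chance flags about 1 in 20. G6pdx had 323 normalized counts in KO 4, and the next KO liver had 249.7. Without KO 4 its log2 difference was −0.22 (limma adjusted p = 0.425). H6pd had 13756 normalized counts in KO 2, and the next KO liver had 10214. Without KO 2 its log2 difference was 0.10 (limma adjusted p = 0.559). KO 2 is also the liver that held the pancreatic transcript Reg1.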

How the results depend on the processing

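Taldo1, Rpe, Me1 and Mlxipl kept their calls, and G6pdx, H6pd and Pgls stayed without one, in all 22 alternatives. No result changed direction. The 4 ratios were repeated in 15 alternatives, without the block for animal runs. With the animal runs as a block, the log2 differences of Pgd, Tkt and Idh1 were −0.97, −0.83 and −0.53 and lost their calls, which left 1 of the 8 genes called; Slc25a1, Acly, Cs, Fasn, Hsd17b12, Tecr, Pfkfb3, Ccna2 and Birc5 lost theirs too. Rpia gained its call with DESeq2 (−0.66) and without WT 6 and KO 2 together (−0.76), where the ratio of Tkt over Taldo1 lost it (−0.37, adjusted p = 0.0952). Over all genes, 601 were called in limma, 1323 with DESeq2, 158 with the block and 917 without both livers. With 1 library left out in turn, the log2 difference ran over −1.11 to −0.81 for Pgd, −0.78 to −0.51 for Rpia, −0.60 to −0.46 for Idh1, −1.06 to −0.84 for Tkt and −0.52 to −0.35 for the ratio of Tkt over Taldo1. Between 2 and 5 of the 8 genes and between 224 (without KO 4) and 933 (without WT 6) of all genes were then called. The cause of these changes was not tested. Equal library totals and equal upper quartiles moved the median of all genes by less than 0.1 on the log2 scale. No paired analysis was possible because the labels give each mouse its own number and no number is shared between genotypes.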
